A study of Zea mays with 6 samples.

Results

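EGG APPARATUS-1 (EA1) genes were followed through RNA-seq of the maize ovule. The 2 transcript models GRMZM2G157505_T01 and GRMZM2G456746_T01, each of a gene with 1 listed model, were taken by their identifiers from 42007 models listed in any library. They are the only models whose deposited protein description names EGG APPARATUS-1. All RNA came from maize of the inbred line Q319. It was taken from embryo sacs before pollination, from nucellus, the ovule tissue around the sac, and from embryo sacs isolated 14 to 16 h after pollination, with 2 libraries of each. Embryo sacs and nucellus were freed from ovule slices by enzyme digestion, per the labels' protocols, so each library pools the cells of whole sacs or of bulk nucellus, and the number of sacs per library is not given in the labels. In such bulk RNA, fewer cells of a type and less RNA per cell cannot be told apart.

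The embryo sac is the female gametophyte of flowering plants. At the end facing the ovule's opening lies the egg apparatus, made of the egg cell and the synergids, and the pollen tube is drawn to it through the nucellus. In maize, EA1 is a small protein secreted by the egg apparatus that acts at short range on the growing pollen tube, and lowering it reduces fertilisation. Proteins of the EA1-like family share a conserved stretch known as the EA box.

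The descriptions differ in strength. GRMZM2G456746_T01, a model of 516 bases, was matched to the curated maize protein named ZmEA1 with a BLAST E-value of 4.86e-10. GRMZM2G157505_T01, of 844 bases, was matched to a maize protein named EGG APPARATUS-1 protein with an E-value of 1.01e-25. Neither carries a gene ontology term in the deposited tables. In RefSeq's list of maize genes (Zm-B73-REFERENCE-NAM-5.0), used here for names and neighbours, 3 consecutive genes carry these identifiers. GRMZM2G157505 belongs to 1 gene, and GRMZM2G456746 to the next 2, of which 1 also bears the names Ea1 and ZmEA1. Because the deposited values count unique reads, reads shared between such adjacent copies may be missing from or split between the models, and the level of GRMZM2G456746_T01 in particular is uncertain.

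The 6 libraries held 17707068 unique reads, 2951178 on average, and the deepest held 1.28 times as many as the shallowest. Of 4 tested models of the nucellus list, 2 were called lower in embryo sac at a fold of at least 2 and 0 higher. Over all tested models, 16.3% were called lower and 23.2% higher at that fold. MADS31 (GRMZM2G071620_T01), a MADS-box gene, had 151 and 142 reads in nucellus against 16 and 5 in embryo sac, and bearded-ear1 (GRMZM2G160565_T01) had 207 and 287 against 0 and 0. The KNOX model GRMZM2G433591_T01 (62 and 75 reads in nucellus, 32 and 25 in embryo sac, adjusted p = 0.0746, edgeR) and knotted-1 (GRMZM5G832409_T01, 15 and 18 against 8 and 0, adjusted p = 0.059, edgeR) did not pass. Bearded-ear1 and knotted-1 entered the test only through nucellus, as their reads in the sacs were under the filter on low counts. Of the 10 other models described as known embryo sac genes, 7 had no read in nucellus. The rest had 58 and 65 (GRMZM2G129157_T01), 2 and 0 (GRMZM2G167733_T02), and 1 and 4 reads there (GRMZM2G118250_T06). Over all tested models, 2.41% had reads in every embryo sac library, pollinated or not, and none in nucellus. Pollinated embryo sacs gave 5 and 10 reads of MADS31 and 2 and 0 of bearded-ear1.

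The first question was where the EA1 genes were expressed. In RPKM (unique reads per kilobase of model, scaled to each library's unique reads, as deposited), GRMZM2G157505_T01 stood at 14.2 and 9.63 in nucellus, at 242 and 198 in embryo sac, and at 361 and 327 after pollination. Its tissues did not overlap, and the order from low to high was nucellus, embryo sac, pollinated embryo sac. Of the 18844 models tested below, 16.5% had this order without overlap in scaled counts. GRMZM2G456746_T01 stood at 27.9 and 30.1 in embryo sac and at 28.2 and 31.8 in pollinated embryo sac, and no read was listed in either nucellus library. The embryo sac values before and after pollination overlapped for this gene. Group means were 220 ± 31.4, 11.9 ± 3.23 and 344 ± 24.6 RPKM (SD, n = 2) for GRMZM2G157505_T01 in embryo sac, nucellus and pollinated embryo sac. For GRMZM2G456746_T01 they were 29 ± 1.55 in embryo sac and 30.0 ± 2.54 after pollination.

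**Figure D1:**
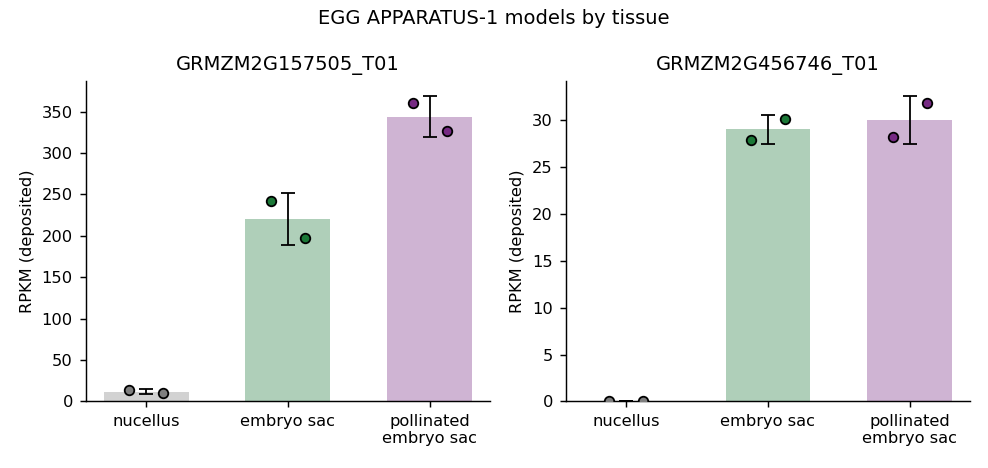
Deposited RPKM of both EGG APPARATUS-1 models in each of the 6 libraries (points), with the mean (bars) and SD (error bars, n = 2) by tissue, each panel on its own linear axis from 0. GRMZM2G157505_T01 lies between 198 and 361 in all embryo sac libraries, pollinated or not, and at most at 14.2 in nucellus, and GRMZM2G456746_T01 lies between 27.9 and 31.8 and is without reads in nucellus.

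The depth behind these values differs between the genes. GRMZM2G157505_T01 drew 36 and 26 reads in nucellus, 667 and 505 in embryo sac, and 775 and 739 after pollination. Its share in nucellus was 12 CPM, counts per 1000000 unique reads, in library 1 (95% exact Clopper-Pearson interval 8.39 to 16.6) and 8.13 in library 2 (5.31 to 11.9), so the gene was detected there in both. GRMZM2G456746_T01 drew 47 and 47 reads in embryo sac and 37 and 44 after pollination. A count of 0 in nucellus allows up to 0.998 and 0.938 CPM in the 2 libraries. These intervals and limits cover counting error only. By RPKM, GRMZM2G157505_T01 ranked 303rd and 371st of the listed models in embryo sac, 244th and 274th after pollination, and 8266th and 10071st in nucellus. The other gene ranked between 3446th and 4028th in the embryo sac libraries of both kinds.

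Embryo sac against nucellus asked whether the EA1 genes marked the gametophyte. GRMZM2G157505_T01 averaged 215 ± 31.4 CPM scaled by TMM (SD, n = 2) in embryo sac against 6.94 ± 1.86 in nucellus, a log2 difference of 4.95 ± 0.17 (SE; edgeR quasi-likelihood test, Benjamini-Hochberg adjusted p = 8.49e-65). GRMZM2G456746_T01 averaged 17.3 ± 0.866 CPM in embryo sac, at least 25.2-fold above nucellus when 3 counts per library are taken as the limit of nucellus (adjusted p = 2.89e-23, edgeR). With total count scaling this lower bound was 15.0-fold. Having no nucellus read, this model passed the filter on low counts only through the embryo sac libraries of both kinds. Both models were thus higher in embryo sac, in 2 of 2 libraries each. At an adjusted p under 0.05, 59.0% of the 18844 tested models differed and 31.6% were higher in embryo sac. With a fold of at least 2 also asked, 39.4% differed and 23.2% were higher. A share of 5.26% of tested models had a larger fitted change than GRMZM2G157505_T01. After pollination the contrast with nucellus was larger in value for this gene, with a log2 difference of 5.76 ± 0.16 (adjusted p = 3.56e-75, edgeR), and GRMZM2G456746_T01 was at least 29.3-fold above nucellus (adjusted p = 2.64e-24, edgeR). In that contrast 72.0% of tested models differed at an adjusted p under 0.05, with 36.0% higher, and 55.2% differed with a fold of at least 2. The nucellus libraries serve in both contrasts.

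The folds moved with the scaling of the libraries, and GRMZM2G157505_T01 stood at 4.20 with total count scaling. Calls higher in embryo sac, at a fold of at least 2, made up 58.8% of all calls with TMM and 28.6% with total count scaling. The median log2 difference over all tested models moved from -0.00 to -0.75. Scaling shifts the models with reads in every library by about the same amount, so the difference of GRMZM2G157505_T01 from that median, 4.95, is alike under each scaling by construction. The fitted difference of GRMZM2G456746_T01 from the median, which depends on the prior count, was 8.74 with TMM, 9.22 with total count and 8.89 with upper quartile scaling.

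Reads of GRMZM2G157505_T01 in nucellus amounted to 5.36% of its embryo sac level in CPM. An EBE model (GRMZM2G129157_T01), of a gene family expressed in the embryo sac and the basal endosperm, had a share of 3.30%, with 58 and 65 reads in nucellus. The ZmEBE-2 model GRMZM2G167733_T02, the most abundant model of this list, had 2 reads in nucellus against 7538 in embryo sac, a share of 0.0269%. An ES2 model (GRMZM2G009359_T01), coding for a small cysteine-rich peptide, had 2136 reads in embryo sac and 0 in nucellus, which allows a share of up to 0.142%. The share of GRMZM2G157505_T01 in nucellus was above that of these 3 abundant embryo sac models. Of the other models of that list, GRMZM2G118250_T06 had 1 read in embryo sac and 5 in nucellus. GRMZM2G456746_T01, with 94 reads in embryo sac and 0 in nucellus, allows a share of up to 3.23%. At the ratio of the EA1 genes in embryo sac, the 62 nucellus reads of GRMZM2G157505_T01 would go with 4.97 reads of GRMZM2G456746_T01. Fisher's exact test of the summed reads gave a two-sided p = 0.0190 for embryo sac against nucellus and p = 0.0707 for pollinated embryo sac against nucellus. This comparison was chosen after the values were seen, it compares pooled libraries with counting error only, and whether the nucellus reads come from nucellus cells was not tested.

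The series asks about the encounter of embryo sac and pollen tube, which the pollinated sacs address. GRMZM2G157505_T01 rose after pollination, from 237 and 193 CPM (TMM) to 393 and 362, with both pollinated libraries above both unpollinated ones. The log2 change was 0.81 ± 0.11 (adjusted p = 2.30e-10, edgeR), below a fold of 2. The background is broad: 51.6% of tested models passed an adjusted p under 0.05 here, 24.3% upward, and 18.4% had a larger fitted change. GRMZM2G456746_T01 stood at 16.7 and 17.9 CPM before and at 18.8 and 21.5 after pollination, a log2 change of 0.22 ± 0.27 that did not pass the test (adjusted p = 0.515, edgeR). It rests on 94 reads before and 81 after pollination.

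**Figure D2:**
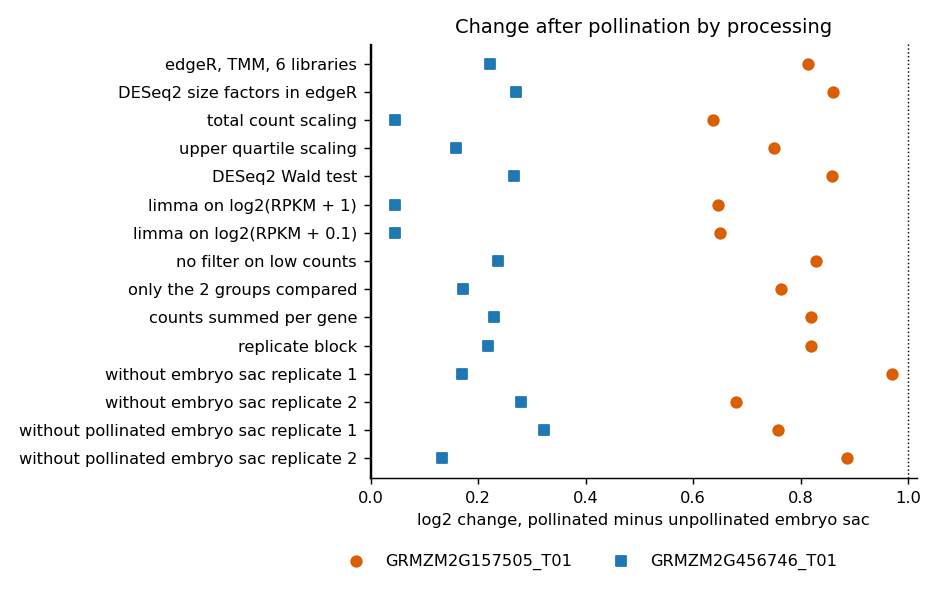
Log2 change of both EGG APPARATUS-1 models from unpollinated to pollinated embryo sac (x axis) under the reported fit and each alternative processing (y axis); the dotted line marks a fold of 2. GRMZM2G157505_T01 stays between 0.64 and 0.97 and GRMZM2G456746_T01 between 0.04 and 0.32. All points reuse the same libraries, so their spread is that of processing and is no test of a difference between the genes.

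The balance between the EA1 genes can be read without scaling. Per kilobase of model, reads of GRMZM2G157505_T01 exceeded those of GRMZM2G456746_T01 by 8.68 and 6.57 times in the embryo sac libraries and by 12.8 and 10.3 times after pollination. Both pollinated libraries lay above both unpollinated ones. On summed reads the ratio was 11.4 after and 7.62 before pollination (Fisher's exact test, two-sided p = 0.0118, counting error only). An exact permutation test over the 4 libraries gave p = 0.333, the smallest that 2 against 2 can give. Leaving out embryo sac library 2 or pollinated library 1 took the Fisher p to 0.168 and 0.123, so this p depends on these libraries. The fitted log2 changes of the genes differed by 0.59 ± 0.30 (SE).

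Replicates bear on this. Embryo sac library 1 held 1.22 times as many CPM of GRMZM2G157505_T01 as library 2 (exact binomial test of counting error, p = 0.00062). For GRMZM2G456746_T01 the corresponding ratio was 0.927 (exact binomial p = 0.757).

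Breadth of coverage differed between the genes as well. The deposited coverage is defined by its header alone, and it was read as the percent of a model's bases that reads cover. In models of 500 to 1000 bases, 100% of its values were whole numbers of bases after rounding, and models with 1 read were covered over 49 bases in 100% of cases in each library. For GRMZM2G157505_T01 it was 60.1% and 60.3% in nucellus, 64.8% and 67.7% in embryo sac, and 65.9% and 73.7% after pollination. It thus lay between 60.1% and 73.7% at depths from 26 reads to 775 reads. In pollinated library 1 the 52 models within 25% of its length and reads had a median breadth of 86.3%, and 19.2% of them lay below it. In nucellus library 2, where it had 26 reads, the median of 476 such models was 45.3%, and 77.3% lay below it. GRMZM2G456746_T01 was covered over 88.4% and 77.7% in embryo sac and over 80.2% and 93.4% after pollination, above the median of like models in each library (68.9% to 78.1%). RPKM divides by the whole model length. Per kilobase of covered length the ratio of the genes was 11.8 and 7.55 in embryo sac and 15.6 and 13.0 after pollination.

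**Figure D3:**
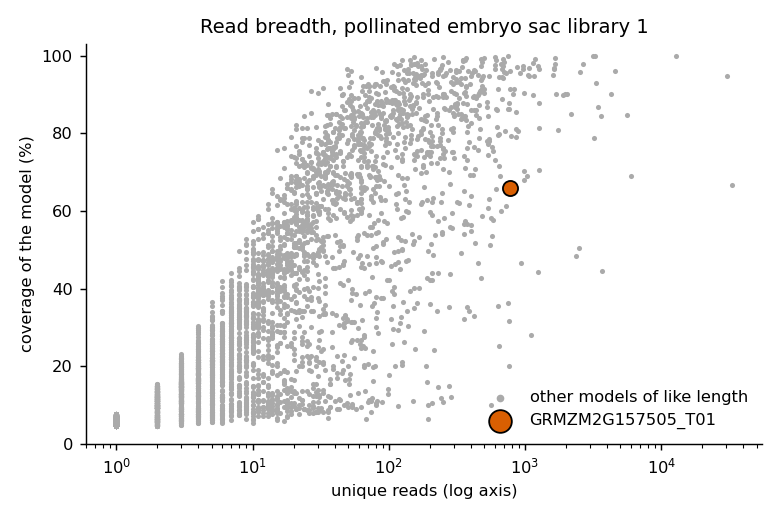
Coverage of the model (y axis, percent of its length) against unique reads (x axis, log scale) in pollinated embryo sac library 1, for models whose length is within 25% of that of GRMZM2G157505_T01 (grey) and for that model (orange). With 775 reads the EGG APPARATUS-1 model is covered over 65.9%, below the median of 86.3% of models with like reads.

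Genes on either side of the EA1 models in the reference table were read for comparison. The MADS-box gene MADS67 (GRMZM2G147716_T01), listed just before, had 46 and 57 reads in nucellus, 27 and 21 in embryo sac, and 10 and 13 after pollination. It did not pass the test between embryo sac and nucellus (log2 difference -0.38 ± 0.30, adjusted p = 0.285, edgeR). GRMZM2G152179_T01, listed just after and without a named function, had 3 and 9 reads in nucellus, 17 and 22 in embryo sac, and 21 and 22 after pollination. It was higher in embryo sac by 2.39 ± 0.48 on the log2 scale (adjusted p = 6.53e-06, edgeR), but it passed the filter on low counts only through embryo sac libraries of both kinds. Beyond MADS67 and a tRNA gene, the undescribed GRMZM2G045287_T01 had 111 and 125 reads in nucellus, 320 and 288 in embryo sac, and 554 and 517 after pollination. It was higher in embryo sac than in nucellus by 2.09 ± 0.14 and rose after pollination by 1.26 ± 0.12 (adjusted p = 1.60e-18, edgeR), which gives the order of tissues seen in GRMZM2G157505_T01. Of all tested models, 16.5% had that order with no overlap between tissues, and 2.41% had reads in every embryo sac library, pollinated or not, and none in nucellus, as GRMZM2G456746_T01 did.

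Models with the most similar profile were sought by the root mean square difference of centred log2(CPM + 1) over the 6 libraries. Nearest to GRMZM2G157505_T01 were GRMZM2G423643_T01, GRMZM2G113060_T01, GRMZM2G024196_T01, GRMZM2G320269_T01 and GRMZM2G404608_T01, at distances of 0.0912 to 0.170, none with an informative description. GRMZM2G423643_T01, the closest, had 9 and 6 reads in nucellus, 226 and 180 in embryo sac, and 231 and 228 after pollination. The nearest described models were heat shock factor protein 4 (GRMZM2G002131_T01), a transcription factor of the heat response, at 0.184, hemoglobin 2 (GRMZM2G168898_T01), an oxygen-binding protein, at 0.184, and a K-exchanger-like protein (GRMZM2G340578_T01) at 0.188. Nearest to GRMZM2G456746_T01 were a U-box domain containing protein (GRMZM2G127690_T01) at 0.113, a putative cytochrome P-450 (GRMZM2G470442_T02) at 0.119, and nucleoredoxin1 (GRMZM2G048324_T01) at 0.138. The undescribed GRMZM2G371606_T01 and GRMZM2G054807_T01 followed at 0.140 and 0.150. The cytochrome P-450 model had 0 and 1 reads in nucellus, 48 and 45 in embryo sac, and 35 and 44 after pollination. The added 1 compresses differences of low models on this scale, and the U-box model had 33 and 30 reads in nucellus. The EA1 genes were not among each other's nearest models named above. At a distance of 0.527, GRMZM2G456746_T01 was 255th from GRMZM2G157505_T01, which was 444th in the other direction. The Pearson correlation between the EA1 genes over the 6 libraries was 0.992, so these ranks do not mean that their profiles were unlike.

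Other secreted proteins that might act on pollen tubes were described by search terms, and of 14 such models besides EA1, 7 were tested, of which 4 are ES peptides that are also among the known embryo sac genes. The ES models had no nucellus read and passed the filter on low counts only through embryo sac libraries, so no count against nucellus is given for this list. Its other tested models had nucellus reads: LCR70 (GRMZM2G380656_T01) had 13 and 24 there against 2774 and 1855 in embryo sac. Among the untested models, LCR69 (GRMZM2G153488_T01) had 4 and 15 reads in nucellus and 0 and 0 in embryo sac. After pollination 0 of 7 rose and 3 fell at a fold of at least 2. At that fold 32.3% of all tested models were called, 13.0% higher and 19.3% lower. The median log2 change was -0.33, against -0.08 over all models. LCR70 (GRMZM2G380656_T01), a cysteine-rich peptide of the class to which the attractants of dicots belong, fell by 4.67 ± 0.15, from 2774 and 1855 reads to 73 and 60 (adjusted p = 2.69e-45, edgeR). Chemocyanin is known from lily as a style protein that directs pollen tubes, and both models of the gene GRMZM2G004160 fell. GRMZM2G004160_T01 went from 40 and 30 reads to 6 and 8 (-1.87 ± 0.43, adjusted p = 0.000109, edgeR), and GRMZM2G004160_T02 from 26 and 19 to 5 and 0 (-2.69 ± 0.63, adjusted p = 0.000131, edgeR). They share the sequence of 1 gene, so their split of unique reads is uncertain. Both passed the filter on low counts only through the unpollinated sacs, where they are high. Outside these sacs GRMZM2G004160_T01 met it only in nucellus library 2, with 14 reads. The count of 3 that fell thus depends in part on the filter.

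The ES peptides of the embryo sac, a family known in maize for bursting the pollen tube on arrival, made up the rest of the tested models. ES1 (GRMZM2G012012_T01) had a log2 change of 0.29 ± 0.14 after pollination (adjusted p = 0.0757, edgeR). An ES2 model (GRMZM2G128301_T01) had 0.41 ± 0.17 (adjusted p = 0.0325) and another (GRMZM2G009359_T01) -0.33 ± 0.11 (adjusted p = 0.00805, edgeR), both below a fold of 2. A short ES2 model (GRMZM2G359064_T01) had 26 and 5 reads before and 12 and 29 after pollination and did not pass (adjusted p = 0.12, edgeR). Among the known embryo sac genes, the EBE model GRMZM2G087766_T01 had values close to those of GRMZM2G157505_T01 in the sacs. It had 0 and 0 reads in nucellus, 768 and 639 in embryo sac, and 999 and 917 after pollination. Its change after pollination was 0.89 ± 0.11 (adjusted p = 1.78e-12, edgeR). Of 9 tested models of that list besides EA1, 7 had no nucellus read and passed the filter only through embryo sac libraries, so no count against nucellus is given. After pollination 0 rose and 1 fell at a fold of at least 2, where 13.0% of all tested models rose and 19.3% fell. The 1 that fell was GRMZM2G167733_T01 (-1.85 ± 0.44, adjusted p = 0.000185, edgeR). It is another model of the ZmEBE-2 gene and passed the filter only through the unpollinated sacs. The list's median was 0.15 against -0.08 over all models. With total count scaling these medians turned to -0.03 and -0.26.

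The list for pollen tube reception was meant for receptors, but the descriptions matched RALF peptides, which are ligands of FERONIA-type receptor kinases, and MLO membrane proteins, of which NORTIA acts in synergids of Arabidopsis. No receptor kinase was among its 20 models. Of 9 tested, 3 were higher and 5 lower in embryo sac than in nucellus at a fold of at least 2 (median -1.06). At that fold 23.2% of all tested models were called higher and 16.3% lower, and the 3 became 1 with total count scaling. Among the 3, GRMZM2G056221_T01 passed the filter on low counts only through the unpollinated sacs. Among the 5, the RALFL33 model GRMZM2G423959_T01 (10 and 15 reads in nucellus, 1 and 3 in embryo sac) passed only through nucellus. So did the RALFL33 model GRMZM2G029455_T01 (60 and 61 reads in nucellus, 10 and 25 in embryo sac), which met the filter in embryo sac library 2 alone of the sacs. The counts against nucellus thus depend in part on the filter. After pollination 2 were higher and 2 lower at a fold of at least 2 (median -0.14). Of all tested models 13.0% were higher and 19.3% lower at that fold, so each share is near the background. With total count scaling 0 were higher and 2 lower, and with DESeq2 size factors 3 were higher and 1 lower. A rapid alkalinization factor model (GRMZM2G077259_T01) had 62 and 52 reads before and 85 and 95 after pollination (log2 change 1.10 ± 0.22, adjusted p = 7.08e-06, edgeR), and it was below a fold of 2 with total count scaling, at 0.92. So was the RALF model GRMZM2G301663_T01, which went from 158 and 154 reads to 227 and 254 (1.06 ± 0.14, and 0.88 with total count scaling). RALFL33 (GRMZM2G029455_T01) fell by 3.59 ± 0.75, from 10 and 25 reads to 1 and 1 (adjusted p = 1.98e-05, edgeR). The RALF model GRMZM2G056221_T01 went from 13 and 11 reads to 5 and 1, with an adjusted p of 0.0485 (edgeR) that was not passed with DESeq2 size factors. It had no read in nucellus and passed the filter only through the unpollinated sacs. The MLO model GRMZM5G881803_T01 was lower in embryo sac, with 125 and 126 reads against 542 and 720 in nucellus (-1.60 ± 0.14, adjusted p = 9.67e-22, edgeR). Also lower there were the MLO model GRMZM2G089259_T01 (-1.38 ± 0.19) and the RALFL33 model GRMZM2G171394_T01 (-1.84 ± 0.23), which had 33 and 28 reads in embryo sac against 186 and 175 in nucellus.

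Search terms for transcription regulators of the gametophyte gave 3 tested models, all MADS-box, of 4 matched. These models were matched by name, which does not show that they act in the female gametophyte. In nucellus they had at most 2 reads in a library, so they too passed the filter only through embryo sac libraries. AGL66 (GRMZM2G152415_T01) fell after pollination by 1.80 ± 0.13, from 658 and 675 reads to 130 and 152 (adjusted p = 3.38e-27, edgeR). The AGL80-like models, whose Arabidopsis counterpart acts in the central cell, had changes of -0.95 ± 0.12 (GRMZM5G839969_T01, adjusted p = 1.34e-11) and -0.68 ± 0.18 (GRMZM5G853066_T01, adjusted p = 0.000798, edgeR). These are below a fold of 2, which GRMZM5G839969_T01 passed with total count scaling at -1.13. The median of the list was -0.95. The search terms for gamete recognition and fusion matched 0 described models.

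**Figure D4:**
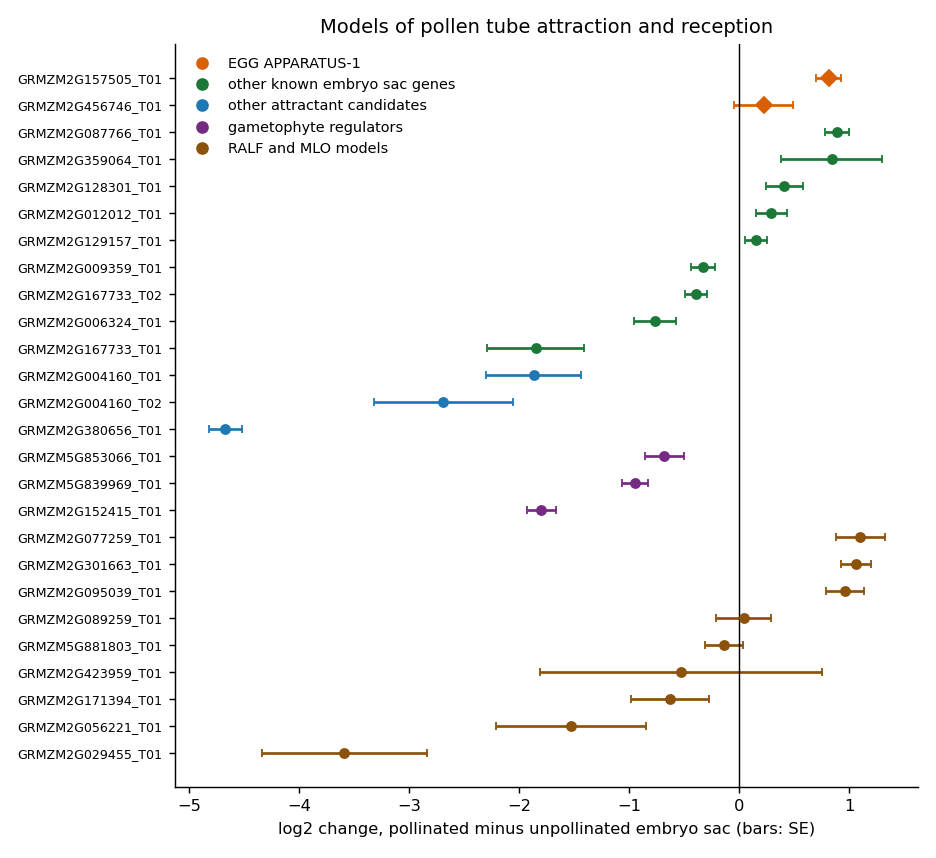
Fitted log2 change from unpollinated to pollinated embryo sac (x axis, bars are SE) of each tested model of the EA1, embryo sac, attractant, regulator and reception lists (y axis). The EA1 models lie at 0.81 and 0.22, while LCR70 (GRMZM2G380656_T01) lies at -4.67 and AGL66 (GRMZM2G152415_T01) at -1.80.

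Markers of other cells were read beside the change after pollination. The 54 models of the pollen list summed to 229 and 268 CPM in nucellus, 127 and 127 in embryo sac, and 243 and 276 after pollination, with 30 and 33 of the models read at all in the pollinated libraries. The most abundant was an anther-specific proline-rich protein (GRMZM2G062577_T01), with 87 and 68 reads before and 197 and 297 after pollination, and 124 and 157 in nucellus. Profilin-4 (GRMZM2G108780_T01), an actin-binding protein, went from 78 and 63 to 107 and 143 reads, and pollen-specific protein SF3 (GRMZM2G004959_T01) had 7 and 11 reads after pollination against 153 and 190 in nucellus. The largest rises of the list, named after their values were seen, were those of another anther-specific proline-rich protein (GRMZM2G045215_T01) and of anther-specific protein SF18 (GRMZM2G079638_T01). GRMZM2G045215_T01 went from 5 and 6 reads to 92 and 88, with 7 and 4 in nucellus (log2 change 4.44 ± 0.35, adjusted p = 2.67e-24, edgeR). It passed the filter on low counts only through the pollinated sacs, where it is high. GRMZM2G079638_T01 went from 2 and 5 reads to 48 and 33, with 68 and 78 in nucellus (3.93 ± 0.45, adjusted p = 2.84e-14, edgeR). Of 15 tested, 5 rose, GRMZM2G045215_T01 among them, and 2 fell at a fold of at least 2, where 13.0% of all tested models rose and 19.3% fell. The median was 0.51 against -0.08 over all models, and with total count scaling 4 rose and 3 fell. The nucellus list of 8 models summed to 150 and 173 CPM in nucellus, 17.8 and 9.93 in embryo sac, and 18.1 and 18.7 after pollination, and of 4 tested models 0 were called at a fold of at least 2 between the sacs. A KNOX homeodomain model (GRMZM2G433591_T01) passed the test below that fold, with 0.73 ± 0.30 (adjusted p = 0.0302, edgeR). The part of pollen or sperm RNA in the rise of GRMZM2G157505_T01 was not tested.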

How the data were processed

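RNA-seq of 6 libraries from 3 tissues was used, with 2 libraries per tissue that the labels call biological replicates. Per the file headers, the deposited tables give unique read counts, RPKM and percent coverage for each transcript model, and the deposited RPKM was recomputed from the counts to within a relative difference of 1.39e-08. The aligner was not given in the sources used here, and neither was the build. Models not listed in a library were taken as 0 reads. Counts were tested in edgeR 4.0.16 (R 4.3.3) with its default filter on low counts, TMM scaling and 1 robust quasi-likelihood fit over all libraries, with Benjamini-Hochberg adjustment over 18844 models. The scripts were tested on simulated data. DESeq2 1.42.0 and limma 3.58.1 on log2(RPKM + 1 or 0.1) were alternatives. A called model had an adjusted p under 0.05 and, where said, a fold of at least 2. Intervals are 95% exact binomial, and a count of 0 was given a limit of 3 counts. Named models are both EA1 models, the 5 nearest profiles and 3 nearest described ones, called models of the pathway lists (at most 3 per direction) and the most abundant markers. Some other models, among them ES, EBE and neighbouring ones, were named after their values were seen. The models and lists were chosen with earlier results of these data known. Search terms for EBE and sperm were corrected after the files were read, because sperm had matched endosperm and spermidine.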

Additional observations from a re-analysis of the deposited data

How the results depend on the processing

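The EA1 models kept direction in 84 of 84 recomputed values, all from the same libraries. Over the 10 settings that left no replicate out, they also kept their side of the threshold. With 0 reads in nucellus, GRMZM2G456746_T01 could not change direction against that tissue. For GRMZM2G157505_T01 the log2 change after pollination ranged from 0.64 to 0.86 over 10 settings, with an adjusted p of up to 0.0489 (limma), and from 0.68 to 0.97 when 1 library was left out. The ratio of the EA1 models after against before pollination was 1.5. Leaving out 1 library moved it between 1.32 and 1.74, and it no longer passed Fisher's exact test without embryo sac library 2 (1.32) or without pollinated library 1 (1.35). Per covered length, an alternative chosen after seeing the data, it was 1.48. Ranking profiles by Pearson correlation shared 1 and 0 of the 10 nearest models with ranking by distance. Higher calls after pollination made up 40.1% of all calls with TMM and 30.6% with total count scaling, and 49.3% and 26.0% for pollinated embryo sac against nucellus. With replicate number as a block, the change of GRMZM2G157505_T01 was 0.82 (edgeR adjusted p = 3.07e-12), and 7299, 5960 and 10294 models were called against 7433, 6090 and 10400 without it. The block changed no call of the EA1 models. Deviations of same-numbered libraries correlated between -0.0210 and 0.0180, so no shared deviation was seen. This cannot show whether same-numbered samples were prepared together. Depth limits GRMZM2G456746_T01, which had at most 47 reads in a library.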

Other observations

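Search terms for the route by which a secreted protein such as EA1 leaves the cell matched 46 models, of which 16 were tested. The term translocon also matched chloroplast import proteins (Tic40, GRMZM2G053019_T01, and an outer membrane translocon, GRMZM2G159777_T01, among those tested), so counts over this list are not of the secretory route alone. After pollination 1 rose and 1 fell at a fold of at least 2, where 13.0% of all tested models rose and 19.3% fell, and the median log2 change was 0.30 against -0.08 over all models. SEC61 gamma (AC208023.3_FGT001), a subunit of the channel into the endoplasmic reticulum, rose from 396 and 345 reads to 654 and 718 (log2 change 1.33 ± 0.12, edgeR adjusted p = 4.42e-21). A translocon-associated protein (GRMZM2G075844_T02) fell from 26 and 12 reads to 1 and 6 (-1.97 ± 0.57, edgeR adjusted p = 0.0022), while the other tested model of its gene (GRMZM2G075844_T01) had 23 and 17 reads before and 20 and 19 after. Delta-COP (GRMZM2G143354_T01), a coat protein of Golgi vesicles, had 741 and 711 reads before and 560 and 531 after pollination and did not pass (0.03 ± 0.11, edgeR adjusted p = 0.861). A subunit of the signal peptidase complex (GRMZM2G077463_T01) had 290 and 262 reads before and 226 and 221 after pollination (0.13 ± 0.13, edgeR adjusted p = 0.406).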
